A study of Camelina sativa with 12 samples.

Results

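HMA2 (Csa11g013320) and the boron transporter BOR5 (Csa09g079390) are 2 of the 49932 genes listed for roots and shoots of camelina (Camelina sativa), an oilseed relative of Arabidopsis. They were chosen by their IDs because salt changed their transcript level one way in roots and the other way in shoots. The values that chose them are thus the salt effects of the root and shoot libraries and how far they differ, and these are given below as a description, without a test. The number in each ID places HMA2 on chromosome 11 and BOR5 on chromosome 9, and their start and end positions were not analysed here.

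Line DH55, a single camelina line, was grown in pots in a growth chamber, and RNA was taken from roots and whole shoots of 28-day-old plants. Control plants received tap water, and salt-treated plants received NaCl at 192 mM, with an electrical conductivity of 15 dSm-1, for 21 days. The 12 libraries of polyadenylated RNA fall into 4 groups by tissue and treatment, with 3 biological replicates in each. Values are CPM (read counts scaled to the library size), rounded to whole numbers before deposition, and the depth of each library is unknown.

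HMA2 is a P-type ATPase that uses ATP to pump zinc and cadmium out of cells. In Arabidopsis it acts in cells around the vascular tissue, where it loads zinc into the xylem for transport from root to shoot. BOR proteins are borate exporters of the plasma membrane. In Arabidopsis, members of this family load boron into the xylem when boron is scarce or move it out of root cells when boron is in excess.

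Library totals were between 882288 and 938888 CPM in roots and between 1077479 and 1117956 CPM in shoots. The tissue labels were checked against marker genes. The summed level of 4 photosynthesis genes (3 for the Rubisco small chain RBCS1A and 1 for a chlorophyll-binding protein) was 12 to 29 CPM in roots without salt, 75 to 201 CPM in salt-treated roots, 18015 to 19831 CPM in control shoots and 9646 to 12146 CPM in salt-treated shoots. Of the 4 root markers, only a root auxin transporter (Csa11g090640) could be analysed, so the root label rests on 1 gene, and it was listed at 11 to 18, 4 to 4, 1 to 1 and 1 to 2 CPM in the same order of groups. A bulk sample cannot tell fewer cells of a type from less RNA per cell.

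HMA2 was highest in salt-treated roots and lowest in salt-treated shoots. In replicates 1, 2 and 3, HMA2 was listed at 2, 2 and 1 CPM in roots without salt and at 6, 5 and 8 CPM with salt. Every salt-treated root library was thus above every control root library. In shoots, the corresponding values were 3, 3 and 2 CPM without salt and 0, 1 and 1 CPM with salt. Every salt-treated shoot library was below every control shoot library, and HMA2 was listed at 0 in 1 of them.

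The mean of HMA2 went from 1.67 ± 0.577 to 6.33 ± 1.53 CPM in roots (SD, n = 3) and from 2.67 ± 0.577 to 0.667 ± 0.577 CPM in shoots. The ratio of the means was 3.8 (salt over control) in roots and 4.0 (control over salt) in shoots. Before rounding, the ratio of these means could lie anywhere between 2.69 and 5.86 in roots and between 1.86 and 9.5 in shoots. These limits do not cover the spread between replicates. On the log2(CPM + 0.5) scale, the salt effect of HMA2 was 1.67 (SE 0.395) in roots and -1.59 (SE 0.395) in shoots, a difference of 3.26 (SE 0.559). Among single libraries left out, salt-treated shoot replicate 1, which was listed at 0, moved the shoot value most. Without it the salt effect in shoots was -1.06 and the difference 2.73.

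BOR5 followed the same order of groups, with a larger range in roots. In control roots, BOR5 was listed at 1, 2 and 2 CPM in replicates 1, 2 and 3. Salt-treated roots held 9, 12 and 10 CPM. The lowest salt-treated root library was thus well above the highest control. In shoots, BOR5 was listed at 3, 3 and 3 CPM without salt and at 1, 0 and 1 CPM with salt. The shoot groups did not overlap either, and 1 salt-treated shoot library was listed at 0.

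The mean of BOR5 went from 1.67 ± 0.577 to 10.3 ± 1.53 CPM in roots (SD, n = 3) and from 3.0 to 0.667 ± 0.577 CPM in shoots, where the control libraries had identical rounded values. The ratio of the means was 6.2 (salt over control) in roots and 4.5 (control over salt) in shoots. Rounding allows 4.54 to 9.29 in roots and 2.14 to 10.5 in shoots. The log2 salt effect of BOR5 was 2.35 (SE 0.372) in roots and -1.75 (SE 0.372) in shoots, a difference of 4.10 (SE 0.526). Without salt-treated shoot replicate 2, the library listed at 0, the salt effect in shoots was -1.22 and the difference 3.57.

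**Figure D1:**
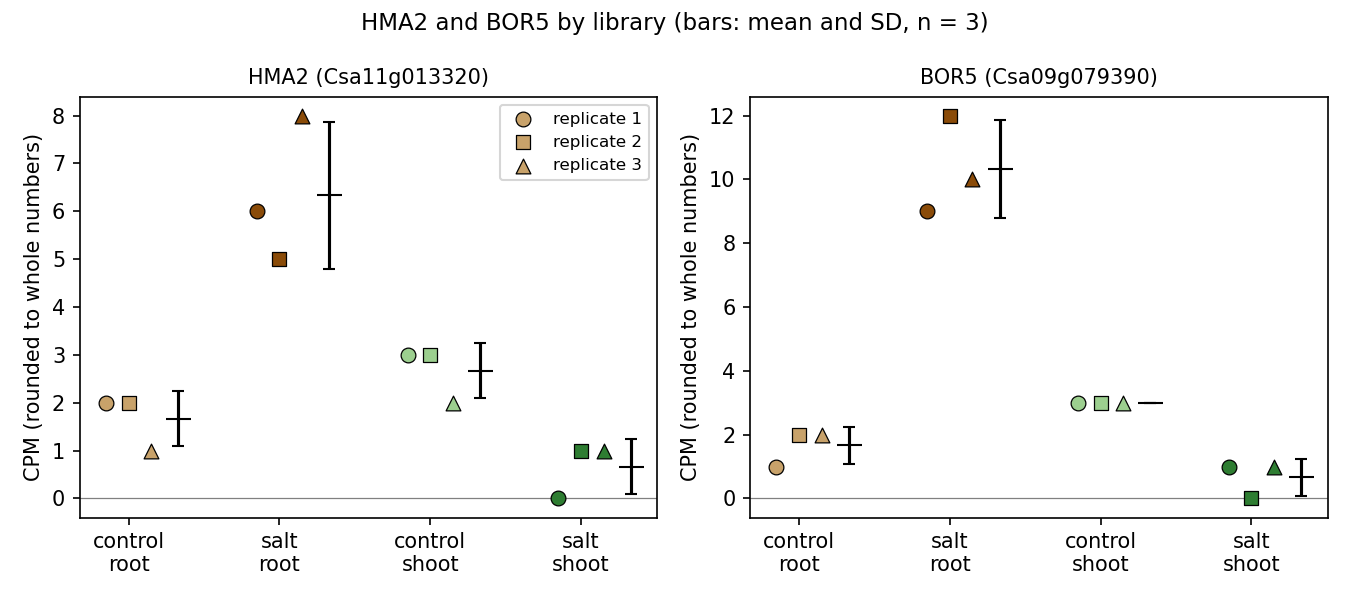
CPM (rounded to whole numbers, y axis) of HMA2 and BOR5 in each of the 12 libraries, by group (x axis), with the mean and SD of the 3 replicates beside the points. In both genes the salt-treated roots are highest (5 to 8 CPM for HMA2 and 9 to 12 CPM for BOR5) and the salt-treated shoots are lowest (0 to 1 CPM).

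Both genes thus had the same order of group means, from salt-treated roots through control shoots and control roots to salt-treated shoots. Some neighbours in this order were not separated. For HMA2, control shoots (2 to 3 CPM) and control roots (1 to 2 CPM) shared the value 2, and control roots and salt-treated shoots shared the value 1. For BOR5, control roots (1 to 2 CPM) and salt-treated shoots (0 to 1 CPM) shared the value 1, while control shoots at 3 CPM were above control roots by the smallest step that the rounded table can show.

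Of all 49928 genes that passed the filter on low values (at least 1 CPM in at least 3 libraries), 25.3% had every salt-treated root library above every control root library, and 25.8% had every salt-treated shoot library below every control shoot library. Both together held for 575 genes, or 1.15%, HMA2 and BOR5 among them, which follows from how they were chosen. A difference between root and shoot effects at least as large as that of HMA2, in the same direction, was found for 116 genes, and one at least as large as that of BOR5 for 35 genes. These counts place both genes in the table and carry no test.

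The summed level of the photosynthesis markers moved in the same directions as HMA2 and BOR5, being higher in salt-treated than in control roots and lower in salt-treated than in control shoots. Its mean in salt-treated roots was 0.681% of that in control shoots, whereas HMA2 in salt-treated roots was at 237% and BOR5 at 344% of their control shoot means. In salt-treated shoots, the sum was at 55.8% of control shoots, HMA2 at 25.0% and BOR5 at 22.2%. The RBCS1A genes make up most of this sum. In roots all 4 markers were up-regulated with salt, as were 8.22% of all genes. Their salt effect was higher in roots than in shoots by 2.648 to 3.545 on the log2 scale, against 3.26 for HMA2 and 4.10 for BOR5. Whether the transporters followed the markers was not tested. In shoots none of the 4 was called. For each RBCS1A gene every salt-treated shoot library was below every control shoot library, as for 25.8% of all genes. The chlorophyll-binding protein gene Csa06g008820 went the other way there, from a mean of 60.3 to 87.3 CPM, with overlapping groups.

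The level in roots against shoots, averaged over control and salt, was tested across all genes with limma. It is another contrast than those that chose the genes, but it shares all 12 libraries with them. HMA2 was listed at 1 to 8 CPM in the 6 root libraries and at 0 to 3 CPM in the 6 shoot libraries, so the tissues overlapped. Its average was higher in roots by 1.06 on the log2 scale (SE 0.28, limma, adjusted p = 0.00495). BOR5 was listed at 1 to 12 CPM in roots and 0 to 3 CPM in shoots, and was higher in roots by 1.32 (SE 0.263, limma, adjusted p = 0.000771). Calls required an absolute log2 difference above 1 besides an adjusted p at or under 0.05, and by these thresholds both were called higher in roots, as were 14.5% of all genes tested.

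This average joins 2 differences of opposite sign and rests on the salt-treated plants alone, so the calls restate the salt effects that chose the genes and add no support to them. In control plants, roots minus shoots was -0.57 for HMA2 and -0.73 for BOR5 on the log2 scale, whereas in salt-treated plants it was 2.69 and 3.37. For HMA2 the call also lay close to the log2 threshold, and with a pseudocount of 1 the difference was 0.86, under the threshold. The difference was 0.98 without control shoot replicate 3, 0.98 without salt-treated root replicate 3 and 0.80 without salt-treated shoot replicate 1, with an adjusted p of at most 0.0158 (limma) when any 1 library was left out.

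Camelina is a hexaploid, and a second gene of each name was examined. Reads from near-identical copies can be split between them in counting, so the values of such pairs are uncertain. The second HMA2 gene (Csa12g017110) was listed at 7, 5 and 3 CPM in roots without salt and at 8, 9 and 12 CPM with salt. In shoots it was listed at 9, 5 and 5 CPM without salt and at 1, 1 and 1 CPM with salt. Its groups did not overlap in either tissue, and their order was that of the first HMA2 gene. Salt-treated libraries were above the controls in roots, as for 25.3% of all genes, and below them in shoots, as for 25.8%. Both together held for 1.15% of all genes.

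In shoots, the second HMA2 gene was down-regulated by salt (log2 change -2.14, limma, adjusted p = 8.63e-05), as were 8.87% of all genes tested. In roots its log2 change was 0.94 (SE 0.283, limma, adjusted p = 0.0186), which is under the threshold of 1. It passed the threshold without control root replicate 1 (1.19) and without salt-treated root replicate 1 (1.06), and its adjusted p (limma) was 0.00794 to 0.0768 over the 12 libraries left out in turn. The salt effect was higher in roots than in shoots by 3.07 (limma, adjusted p = 0.000418), a call shared by 6.09% of all genes. Averaged over control and salt, this gene was higher in roots by 1.21 (limma, adjusted p = 0.000192), a call shared by 14.5% of all genes. Roots minus shoots was -0.33 in control plants and 2.74 in salt-treated plants, so this average rests on the salt-treated plants alone.

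The second BOR5 gene (Csa16g038700) was listed at 4, 6 and 6 CPM in roots without salt and at 24, 34 and 49 CPM with salt. In shoots, however, its values went from 1, 1 and 1 CPM to 3, 3 and 5 CPM. Salt-treated libraries were above the controls in both tissues, as for 14.3% of all genes, whereas in shoots the first BOR5 gene was lower with salt.

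The second BOR5 gene was up-regulated in roots (log2 change 2.59, limma, adjusted p = 1.64e-05) and in shoots (1.44, limma, adjusted p = 0.000717), where 8.22% and 10.8% of all genes were up-regulated. The difference between its salt effects was 1.15 (limma, adjusted p = 0.0407), and this call did not hold when any of 10 single libraries was left out (adjusted p up to 0.0978 and log2 differences from 0.90). This gene was higher in roots by 2.52 when control and salt were averaged (limma, adjusted p = 1.33e-07), as were 14.5% of all genes. Roots minus shoots was 1.94 in control plants and 3.09 in salt-treated plants.

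**Figure D2:**
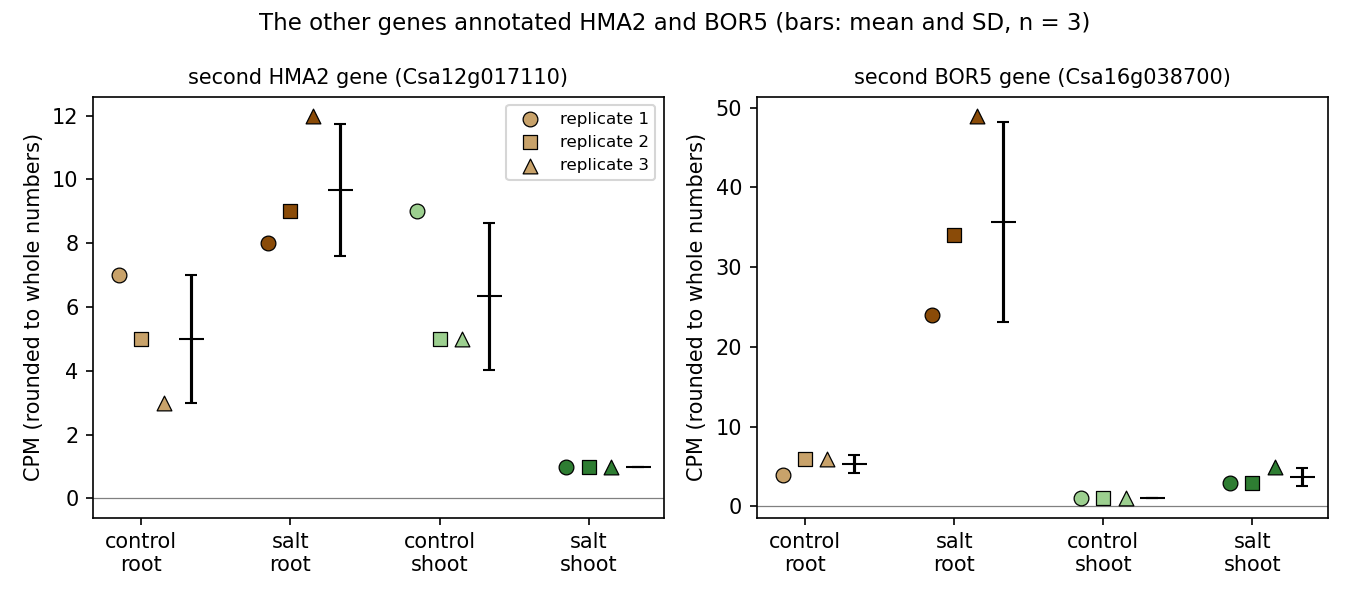
CPM (rounded to whole numbers, y axis) of the second HMA2 gene and the second BOR5 gene in each of the 12 libraries, by group (x axis), with the mean and SD of the 3 replicates beside the points. The second HMA2 gene is at 1 CPM in every salt-treated shoot library, below control shoots, whereas the second BOR5 gene is at 3 to 5 CPM there, above control shoots at 1 CPM.

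The ratio between the genes of a pair was followed across groups. Gene length enters the ratio, so only its change between groups can be read. For BOR5, the log2 ratio of the first to the second gene was -1.45 ± 0.119 in control roots and -1.69 ± 0.477 in salt-treated roots (SD, n = 3). It was 1.22 in all 3 control shoot libraries and -1.97 ± 0.797 in salt-treated shoots. The control shoots thus stood apart from the other 9 libraries, which were all at -1.22 or lower. In each control shoot library the first gene was at 3 and the second at 1 CPM, so the identical ratios come from rounded values. In salt-treated shoots the first gene was at 0 or 1 CPM, where the ratio depends on the added 0.5.

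For HMA2, the log2 ratio was -1.31 ± 0.238 in control roots, -0.58 ± 0.202 in salt-treated roots, -1.08 ± 0.398 in control shoots and -0.53 ± 0.915 in salt-treated shoots. The root groups did not overlap, and the shoot groups did. Summed over both genes, HMA2 was at 4 to 9 CPM in roots without salt and 14 to 20 CPM with salt. In shoots the sums were 7 to 12 CPM without salt and 1 to 2 CPM with salt. The BOR5 sums were 5 to 8 CPM in roots without salt and 33 to 59 CPM with it. In shoots they were 4 CPM in all control libraries and 3 to 6 CPM with salt, so the sum overlapped between the shoot groups.

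**Figure D3:**
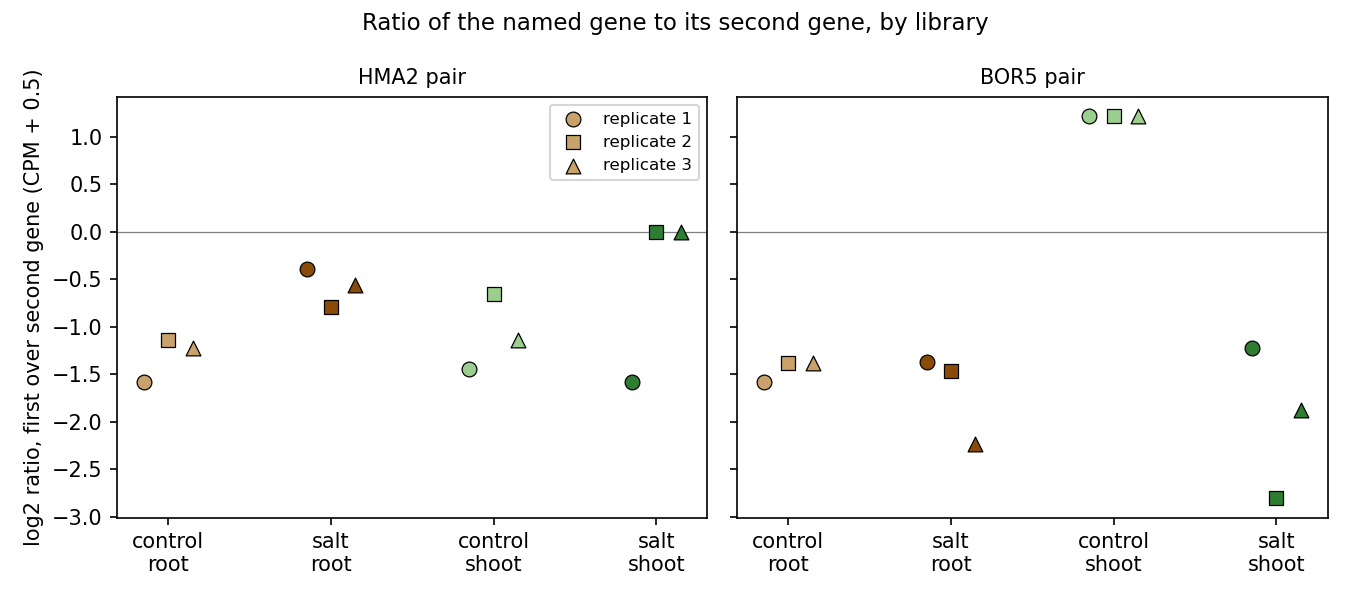
Log2 ratio of the first to the second gene of each pair (CPM + 0.5, y axis) in each library, by group (x axis). For BOR5 the 3 control shoot libraries lie at 1.22 and the others are negative, whereas for HMA2 the groups lie closer together, with means from -1.31 to -0.53.

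Other genes for metal uptake, efflux, binding and storage were followed in the same fit. This list holds 26 genes that the study named from these same libraries, so its counts and direction are not independent evidence. The 8 without a row were not analysed here. They include 4 of the 7 uptake genes (3 for the iron importer IRT1 and 1 for zinc transporter 8), so the counts do not cover these. Of the 18 tested, Ferritin 2 (Csa15g014720) passed the filter only through salt-treated roots and is left out of the counts, a choice made after seeing the data. Of the other 17, 11 were up-regulated and 1 was down-regulated in roots, where 8.22% and 7.85% of all genes were. In shoots, 13 were up-regulated and 1 was down-regulated, against 10.8% and 8.87% of all genes. Their median log2 change was 1.86 in roots and 2.21 in shoots, and that of all genes was 0 in both.

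Of these genes, 8 were up-regulated in both tissues and 1 was down-regulated in both, against 4.26% and 3.88% of all genes. None had opposite calls in the tissues, but up-regulation in roots with down-regulation in shoots was called for only 0.188% of all genes, so nothing can be read from its absence in a list of this size. The salt effect was higher in roots for 4 of them and higher in shoots for 6, where 6.09% and 6.25% of all genes were so called. A higher effect here is the more positive log2 change, so a smaller fall also counts as higher.

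Ferric-chelate reductases (FRO) convert ferric to ferrous iron before its uptake. The FRO2 gene Csa03g001650 was listed at 1, 1 and 1 CPM in roots without salt and at 1, 2 and 1 CPM with salt. In shoots it went from 2, 2 and 2 to 8, 9 and 10 CPM and was up-regulated (log2 change 1.92, limma, adjusted p = 1.28e-05). Between the tissues, the shoots had the higher salt effect, the opposite order to that of HMA2 and BOR5 (limma, adjusted p = 0.0016). The other FRO2 gene (Csa14g001580) and the FRO1 gene (Csa17g002060) were also up-regulated in shoots, with log2 changes of 2.13 and 2.21, and were not called in roots. With a pseudocount of 0.1, Csa14g001580 was not called in shoots either. These genes were at 0 to 1 CPM in every root library, where the rounded values can hardly show a change.

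The cation efflux protein gene Csa03g020030, which encodes an exporter of another family than HMA2, was listed at 5, 5 and 6 CPM in roots without salt and at 19, 18 and 18 CPM with salt. In shoots it went from 2, 2 and 2 to 7, 5 and 8 CPM. It was up-regulated in both tissues (limma, adjusted p = 7.42e-06 in roots and 1.17e-05 in shoots), with a log2 change of 1.70 in roots. The effects differed by 0.20, with a limma adjusted p of 0.539.

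Among genes for metal-binding proteins, 3 for the heavy metal transport/detoxification superfamily protein 8 were up-regulated in both tissues, with log2 changes of 2.91 to 3.06 in roots and 2.74 to 3.13 in shoots. The heavy-metal-associated domain protein gene Csa17g030060 was listed at 3 CPM in every control root library and 1 CPM in every salt-treated root library, and at 4, 3 and 4 CPM in control shoots and 0 in all salt-treated shoots. It was the 1 listed metal gene down-regulated in both tissues (limma, adjusted p = 6.85e-05 in roots and 1.29e-07 in shoots). With a pseudocount of 1 its change in roots no longer exceeded the log2 threshold.

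Ferritins store iron in plastids. The Ferritin 1 gene Csa13g001310 was listed at 28, 35 and 30 CPM in roots without salt and at 294, 163 and 170 CPM with salt. In shoots it went from 8, 10 and 16 to 184, 52 and 133 CPM. All 3 Ferritin 1 genes were up-regulated in both tissues, with log2 changes of 2.12 to 2.69 in roots and 2.44 to 3.26 in shoots, and for none of them was the difference between tissues called. The selenium-binding protein gene SBP3 (Csa19g035500) was listed at 10, 15 and 20 CPM in roots without salt and at 48, 48 and 77 CPM with salt. All 6 shoot libraries were at 0.

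BOR5 transports an anion, so 14 anion transporter genes were followed as well. The study named them from these same libraries, so their counts and directions are not independent evidence. Of the 12 that could be tested, 3 were up-regulated and 4 were down-regulated in roots, where 8.22% and 7.85% of all genes were. In shoots, 6 were up-regulated and 2 were down-regulated, against 10.8% and 8.87% of all genes. The salt effect was higher in roots for 2 and higher in shoots for 7, against 6.09% and 6.25% of all genes. The effects are signed, so a gene that fell more in roots counts as higher in shoots.

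The closest to the BOR5 change in roots were 3 genes for the sulfate transporter SULTR3;4, with log2 changes of 2.28 to 2.32. The SULTR3;4 gene Csa01g018620 was listed at 5, 4 and 4 CPM in roots without salt and at 30, 23 and 19 CPM with salt, and at 3, 2 and 2 and then 3, 4 and 4 CPM in shoots. Its salt effect was higher in roots by 1.76 (limma, adjusted p = 0.00124). The chloride channel B gene Csa09g012970 showed the reverse, from 39, 25 and 37 to 2, 3 and 4 CPM in roots (log2 change -3.30, limma, adjusted p = 9.89e-06) and from 11, 12 and 11 to 16, 7 and 16 CPM in shoots, where it was not called. The nitrate transporter gene NRT1 (Csa17g016300) was down-regulated in both tissues, by log2 changes of -3.90 in roots and -1.94 in shoots.

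**Figure D4:**
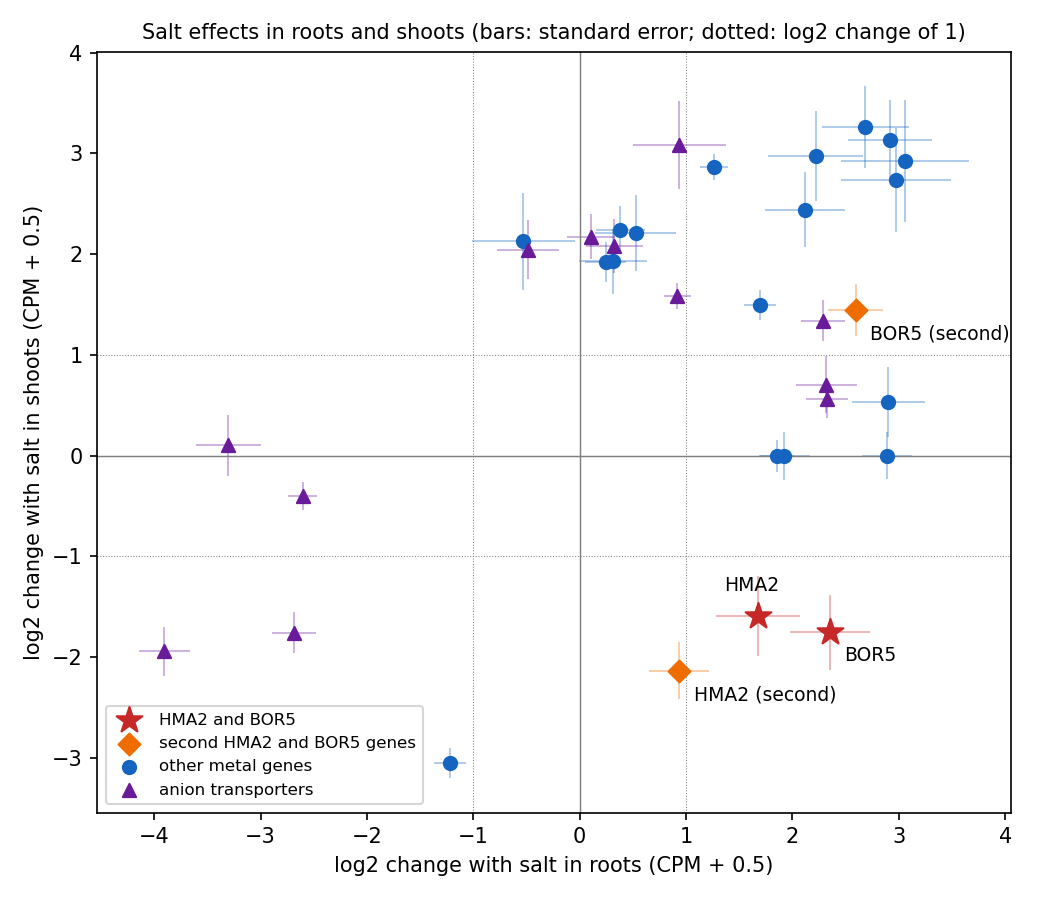
Log2 change with salt (CPM + 0.5) in roots (x axis) and in shoots (y axis) of HMA2, BOR5, the second genes of both names, the 18 other metal genes and the 12 anion transporter genes, with standard errors as bars. HMA2 (1.67 and -1.59) and BOR5 (2.35 and -1.75) lie at the lower right with the second HMA2 gene, whereas 8 metal genes up-regulated in both tissues lie at the upper right.

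The genes most like HMA2 and BOR5 were sought by Pearson correlation of log2(CPM + 0.5) over the 12 libraries, among 35995 genes with a mean of at least 5 CPM. HMA2 and BOR5 themselves had means of 2.83 and 3.92 CPM, so genes at their own level were not searched. The r values are a description, since the libraries of a group share their treatment and tissue. For HMA2 the 10 highest r values were 0.90 to 0.93, and none of these genes had a name in the lists. The highest was Csa03g004560 (r = 0.93), whose range with salt was 25 to 30 CPM in roots and 17 to 21 CPM in shoots, against 22 to 24 and 23 to 27 CPM without salt. Its order of groups was that of HMA2, over a much narrower range.

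The second HMA2 gene ranked 40 among these genes, with r = 0.87. For BOR5 the 10 highest r values were 0.90 to 0.94, and the highest was that of Csa16g053500. Its range with salt was 29 to 36 CPM in roots and 13 to 16 CPM in shoots, against 20 to 23 and 23 to 26 CPM without salt. The second BOR5 gene ranked 2061, with r = 0.62.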

How the data were processed

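RNA from 12 libraries was sequenced (TruSeq stranded kits). The authors trimmed reads with Trimmomatic, mapped them with STAR, divided counts by library size to obtain CPM and scaled these with DESeq. No source used here gave versions. The deposited values are a score, CPM rounded to whole numbers, so count models were not used and depth is unknown. They cannot resolve differences under 1 CPM.

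The values were analysed with limma 3.58.1 in R 4.3.3, with a trend, on log2(value + 0.5). Genes at 1 or more in at least 3 libraries were kept (49928 of 49932). One model with 4 groups gave salt effects, their difference and the tissue average, with 8 residual degrees of freedom. P values were adjusted by Benjamini-Hochberg over all genes, and calls needed an absolute log2 value above 1 and an adjusted p at or under 0.05. The model was tested on simulated data, with a spread taken from genes at higher levels than HMA2 and BOR5. That test cannot show how the model performs for genes as low as these. Rounding limits were computed by moving each value by 0.5 CPM, never below 0.

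HMA2, BOR5 and the gene lists were chosen with earlier results of these data known. Named genes were both members, the second genes, listed metal and anion transporter genes, and at most 2 similar genes for each member. Listed genes without a row in the table were not analysed here. None of the 49932 IDs matched the RefSeq gene table. Alternatives were the pseudocount (0.1 and 1), the filter, 2 other scalings, a replicate block, no moderation, each tissue fitted alone and each library left out.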

Additional observations from a re-analysis of the deposited data

Results flagged for a closer look

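The salt effect differed between roots and shoots for both transporters, by 3.26 (HMA2) and 4.10 (BOR5) on the log2 scale. Every root library moved up and every shoot library moved down relative to its controls. This difference was not tested, since it is what the genes were chosen for. The second HMA2 gene differed by 3.07 and the second BOR5 gene by 1.15, both with the interaction term in limma.

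Of the 29 other listed genes tested, leaving out Ferritin 2, the same test found a higher salt effect in roots for 6, against 6.09% of all genes. The study named these genes from these same libraries, so neither this count nor the one for shoots below is independent evidence. The log2 differences were 2.37 for Csa10g002430 and 1.86 for Csa12g002570 (both heavy metal transport/detoxification superfamily proteins), 1.83 for the heavy-metal-associated domain protein Csa17g030060, 1.92 for SBP3, and 1.76 and 1.61 for SULTR3;4 (Csa01g018620 and Csa19g022820). For Ferritin 2 (Csa15g014720) the difference was 2.89, which is given as a description because this gene was above 0 in salt-treated roots only and passed the filter through them. Csa12g002570, SBP3 and Ferritin 2 were listed at 0 in all 6 shoot libraries, so their difference restates the change in roots. Csa17g030060 fell in both tissues, with log2 changes of -1.22 in roots and -3.05 in shoots. Its higher effect in roots is thus a smaller fall.

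A higher salt effect in shoots, that is the more positive log2 change, was found for 13 of the 29, against 6.25% of all genes. The differences were -2.66 for FRO2 (Csa14g001580), -1.68 for FRO2 (Csa03g001650), -1.68 for FRO1, -1.86 and -1.62 for the metal detoxification superfamily proteins Csa02g048960 and Csa18g023670, -1.60 for SBP1 and -1.96 for NRT1. They were -2.53 and -2.14 for the phosphate transporters Csa16g030840 and Csa05g086190, -2.07 and -1.75 for phosphate transporter 1 (Csa16g040570 and Csa07g047990), and -2.20 and -3.40 for chloride channel B (Csa04g014930 and Csa09g012970). NRT1 and these chloride channel B genes changed more in roots (log2 change -3.90, -2.60 and -3.30) than in shoots (-1.94, -0.40 and 0.10). Csa14g001580 and FRO1 were at 0 to 1 CPM in every root library, so their difference mostly restates the change in shoots.

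Some of these calls did not hold when single libraries were left out. The adjusted p (limma) then reached 0.101 for FRO1, 0.065 for Csa18g023670, 0.0712 for Csa05g086190 and 0.0978 for the second BOR5 gene. With a pseudocount of 0.1 it was 0.22 for Csa10g002430, 0.116 for FRO2 (Csa14g001580), 0.418 for FRO1 and 0.11 for the second BOR5 gene, so these differences were not called there either.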

How the results depend on the processing

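HMA2 and BOR5 kept the direction of every salt effect and of the tissue average in all alternatives. With a pseudocount of 1, the tissue average of HMA2 was 0.86 (adjusted p = 0.00209), under the threshold of 1, and leaving out single libraries gave 0.80 to 1.19. With a pseudocount of 0.1, the salt effect in shoots was -2.46 for HMA2 and -2.65 for BOR5, and the difference between tissues was 4.36 and 5.26. With a pseudocount of 1 that difference was 2.66 and 3.44. Leaving out single libraries gave -1.85 to -1.06 (HMA2) and -2.02 to -1.22 (BOR5) in shoots, and 2.73 to 3.53 and 3.57 to 4.37 for the difference.
No listed metal gene was down-regulated in roots with a pseudocount of 1 (0 genes). With the filter at 5 CPM, Csa17g030060 and Ferritin 2, both at 4 CPM or less in every library, were not tested. The counts of down-regulated metal genes were thus 0 in roots and 0 in shoots there. A higher salt effect in roots was then called for 3 metal genes, against 5 in the main fit with Ferritin 2 counted.

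Pairing of libraries by replicate number was not evident (3 of 18 same-numbered pairs correlated above 0.1, over 5444 genes). The r values were -0.18 to 0.35 for same-numbered pairs and -0.35 to 0.31 for the others. This comparison cannot exclude that same-numbered libraries were paired. With the replicate block, the tissue averages of HMA2 (1.06, adjusted p = 0.00838) and BOR5 (1.32, adjusted p = 0.00161) were called as before.

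Differences between tissues that had not been called changed sign for heavy metal transport/detoxification superfamily protein 8 at other pseudocounts (Csa03g026830 to 0.45, Csa14g029230 to -0.86, Csa17g030050 to -0.96) and for Ferritin 1 (Csa08g063260) under quantile normalization (0.0305). Leaving out single libraries gave -0.62 to 0.17, -0.34 to 0.60, -0.54 to 0.86 and -0.74 to 0.00696 for these 4 genes. It gave -0.0148 to 0.35 in roots for phosphate transporter 1 (Csa16g040570) and -0.088 to 0.48 in shoots for chloride channel B (Csa09g012970), neither of them called.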

Other observations

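The 5 listed IDs on each side of HMA2 and of BOR5 on the same chromosome were examined in the same fit. Around HMA2, 0 of 10 genes were up-regulated and 1 was down-regulated in roots, and 0 were up-regulated and 2 were down-regulated in shoots. Over the whole table, up-regulation was called for 8.22% in roots and 10.8% in shoots, and down-regulation for 7.85% and 8.87%, so these counts lie near the shares over all genes. The difference between their salt effects was -0.35 to 0.66 on the log2 scale, against 3.26 for HMA2, and none was called. Around BOR5, 1 of 10 genes was up-regulated in roots, and 1 was up-regulated and 1 was down-regulated in shoots. Here the difference was -1.15 to 1.70, against 4.10 for BOR5, and was called higher in roots for 2 genes and higher in shoots for 1, where 6.09% and 6.25% of all genes were so called.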
